A study of Mus musculus with 6 samples.

Results

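The transcription factor NRF2, encoded by *Nfe2l2*, and 9 antioxidant genes, *Nqo1*, *Gclc*, *Gclm*, *Gpx1*, *Gpx4*, *Txnrd1*, *Srxn1*, *Prdx1* and *Sod2*, were examined in microglia with and without Bhlhe41. The 10 genes were taken by symbol, and every array probe named by a RefSeq transcript accession of these genes was kept. This gave 14 of the 56601 probes tested and 10 of the 23462 genes with a tested probe. Probes named in other ways were not assigned to genes. Microglia were enriched on Percoll from brains of young mice (3-month-old according to the figure legends), sorted as live CD45lo Cx3cr1+ CD11b+ cells, and total RNA was hybridised to 6 Agilent SurePrint G3 Mouse arrays in 1 colour. The 3 control samples came from Bhlhe41 dTomato-Cre/+ mice (B41HET) and the other 3 from Bhlhe41 dTomato-Cre/dTomato-Cre mice (B41KO), on a C57BL/6 background, with no treatment named. The allele is a reporter knock-in that yields dTomato and Cre in place of the Bhlhe41 protein wherever the gene is active. The controls therefore carried 1 disrupted copy, and B41KO mice carried the cassette on both copies. Both genotypes expressed the reporter and the recombinase, but at different doses, and the paper reports more dTomato in B41KO than in B41HET microglia. Reporter and recombinase dose cannot be told apart from loss of Bhlhe41 in this design, and its part was not tested. The Methods describe the samples as pools of several mice, while the labels speak of 3 mice per genotype, so the p-values below measure the spread between these 6 samples.

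NRF2 is held at a low level by KEAP1, an adaptor that delivers it to the CUL3 ubiquitin ligase for degradation. Oxidants and electrophiles modify KEAP1, NRF2 then accumulates, pairs with a small MAF protein and binds the antioxidant response element, while BACH1 competes for the same sites. Its targets make glutathione, reduce thioredoxin, supply NADPH and detoxify quinones and heme, and in microglia, which produce superoxide with their NADPH oxidase, these enzymes remove the peroxides that follow. Since NRF2 is regulated mostly as a protein, its transcript level is not a measure of its activity.

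To show which genes carry the letters of the antioxidant response element near their start, TGACNNNGC was searched on both strands in RefSeq promoter windows on GRCm38.p6, each from 250 bases before to 50 bases after a transcription start. Of the 10 genes, 9 matched the table with 14 windows, and *Gclc* did not match. The letters occurred in 5 of the 14 windows, those of 5 of the 9 genes, beside 12.4% of all 32851 windows and 3781 of the 27025 genes in the table. The matches, in capitals with the 10 bases on either side and read in the direction of the gene, were as follows.
Nfe2l2, chr2:75704885-75704913, minus strand, from -240 to -232 of the start: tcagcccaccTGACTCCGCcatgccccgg
Gclm, chr3:122245413-122245441, plus strand, from -134 to -126: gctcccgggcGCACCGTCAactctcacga
Prdx1, chr4:116685456-116685484, plus strand, from -133 to -125: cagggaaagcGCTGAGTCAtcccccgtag
Txnrd1, chr10:82859104-82859132, plus strand, in 1 of its 3 windows, from -92 to -84: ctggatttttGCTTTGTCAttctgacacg
Srxn1, chr2:152105542-152105570, plus strand, downstream of the start, from 29 to 37: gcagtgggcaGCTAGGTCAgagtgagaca
In *Nfe2l2* the letters lay on the strand of the gene, and in the other 4 genes on the opposite strand, where they read as their reverse complement. The match of *Prdx1* also holds TGANTCA, the AP-1 motif, and cannot be told apart from it. The windows of *Nqo1*, *Gpx1*, *Gpx4* (4 windows) and *Sod2* held no match. CACGTG, the E-box that Bhlhe41 is known to bind, was in none of the 14 windows, against 7.15% of all windows. At that share 14 windows are too few to read this as a lack of the motif, and bases farther than 250 before a start were not searched. A match is a description of letters and not a site shown to be bound.

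None of the 14 probes was called as different between B41KO and B41HET, which took a log2 difference of at least 0.5 in either direction and an adjusted p of at most 0.05 (limma, Benjamini-Hochberg adjustment over all probes). Over the whole array 5.09% of probes were called, 1.72% higher and 3.38% lower in B41KO. At an unadjusted p under 0.05, 6 of the 14 probes passed, as did 13013 of all 56601. The groups did not overlap for 6 of the 14 probes, 1 higher and 5 lower in B41KO, while they did not overlap for 29.6% of all probes. The median log2 difference was -0.09 over the 14 probes and 0.01 over all probes. When the arrays were aligned on their 75th percentile instead of by quantiles, these medians were -0.06 and 0.13, so small differences depend on the scaling, and none of the 14 probes was called there either. By the scanner's own flag, 11 of the 14 probes were well above background in all 6 samples. Levels below are quantile-normalized log2 signals of single probes, which cannot be compared between genes because probes differ in brightness.

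**Figure D1:**
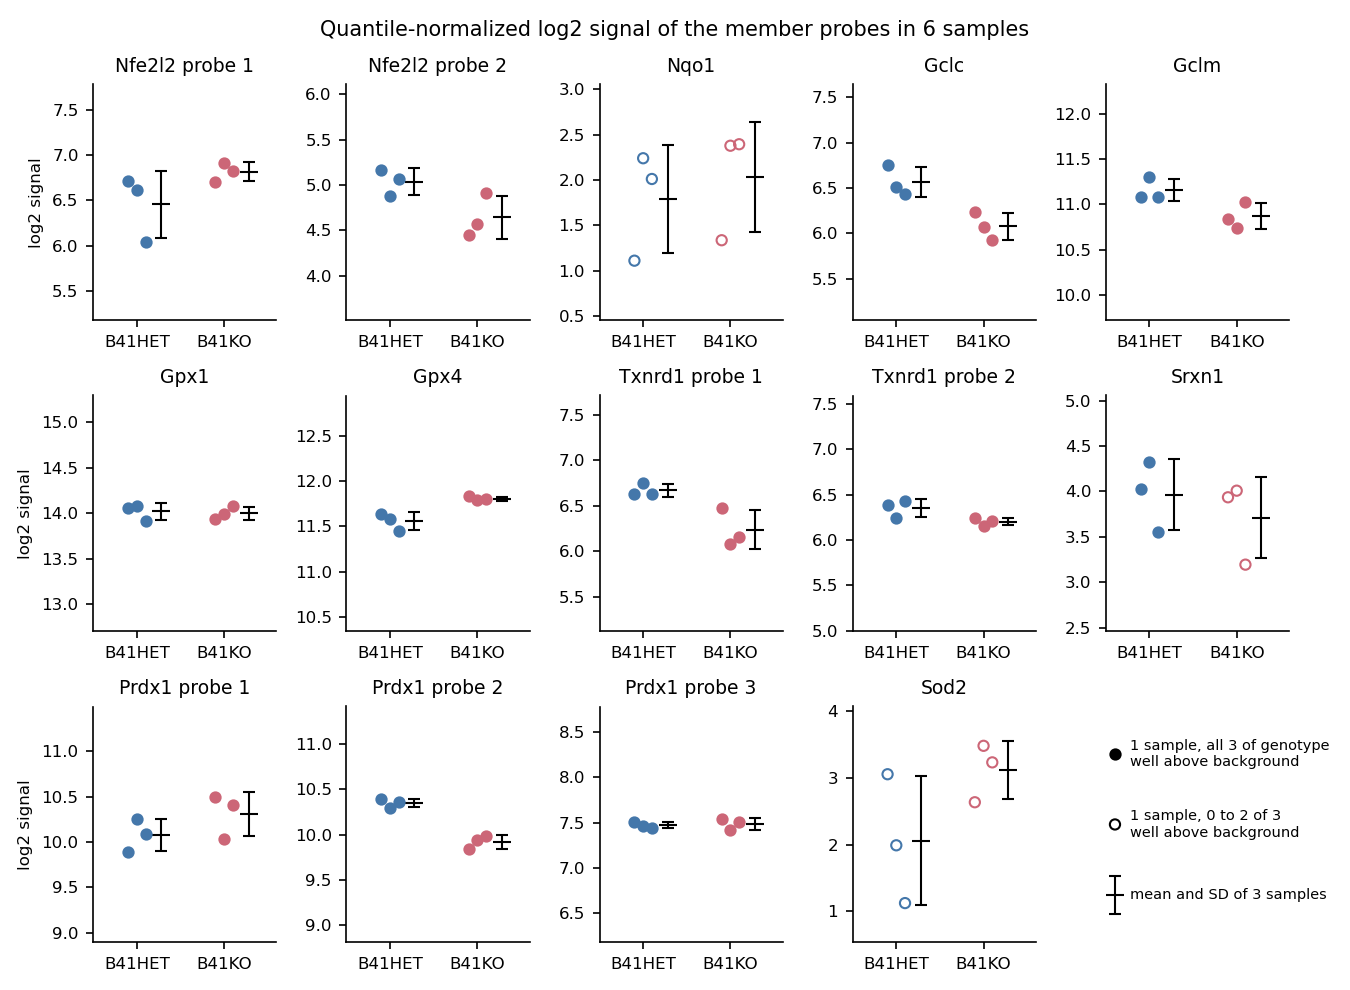
Log2 signal of each of the 14 probes (vertical axis, quantile-normalized) in 3 B41HET and 3 B41KO samples, with the mean and SD of each genotype. The genotypes lie apart for Gclc, Gclm, Gpx4, both Txnrd1 probes and Prdx1 probe 2, and Nqo1 and Sod2 are the probes with no or 1 sample well above background.

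*Nfe2l2* had 2 probes, which went in opposite directions. The brighter probe (A_51_P411271), on the protein-coding transcript, gave log2 signals of 6.71, 6.62 and 6.04 in B41HET and 6.71, 6.92 and 6.82 in B41KO. B41HET replicate 3 lay below the other 5 samples, and the remaining values overlapped. The log2 difference was 0.36 ± 0.19 (SE, n = 3 per genotype; limma adjusted p = 0.343), and it was 0.15 without B41HET replicate 3. The second probe (A_55_P2720430), designed on a noncoding RefSeq transcript of the gene, gave 5.17, 4.88 and 5.07 in B41HET and 4.45, 4.57 and 4.91 in B41KO. Here B41KO replicate 3 lay within the B41HET values, and the log2 difference was -0.39 ± 0.15 (SE; limma adjusted p = 0.193), or -0.09 with normexp background correction. The probe with the most similar profile to the brighter *Nfe2l2* probe over the 6 samples, among 24211 named probes well above background on all arrays, was that of *Dusp7* (Pearson's r = 0.993), followed by *Rbfa* (0.993) and *Mitd1* (0.990). These 6 samples share a slide and a normalization, and the coefficients are the highest of many.

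*Gclc* and *Gclm* encode the catalytic and the modifier subunit of glutamate-cysteine ligase, the rate-limiting enzyme of glutathione synthesis. *Gclc* (A_51_P365019) gave 6.75, 6.52 and 6.43 in B41HET and 6.23, 6.07 and 5.93 in B41KO. All 3 B41KO samples lay below all 3 B41HET samples, the nearest 0.20 apart. The difference was -0.49 ± 0.12 (SE, n = 3 per genotype) on the log2 scale, 1.40-fold, just short of the fold threshold, and its limma adjusted p of 0.0819 missed the threshold as well. Over the 14 alternatives for this probe the adjusted p ran from 0.0418 to 0.433, and it was under 0.05 in 2 of them, with a smaller difference than the threshold in both. The log2 difference itself ran from -0.57 to -0.28. *Gclm* (A_66_P138964) gave 11.08, 11.30 and 11.08 in B41HET and 10.84, 10.74 and 11.03 in B41KO. The samples did not overlap, but by only 0.06, and the log2 difference was -0.29 ± 0.11 (SE; limma adjusted p = 0.203). For single values of this kind a two-sided exact permutation test over 3 samples against 3 cannot give a p below 0.1, which is what it gave for both subunits.

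*Gpx1* and *Gpx4* encode the selenium-dependent glutathione peroxidases that reduce hydrogen peroxide and, for GPX4, lipid peroxides in membranes. *Gpx1* (A_52_P684378) gave 14.06, 14.08 and 13.91 in B41HET and 13.93, 13.99 and 14.08 in B41KO. The samples were interleaved, and the log2 difference was -0.02 with a 95% interval from -0.23 to 0.19 (limma adjusted p = 0.915), an interval that lies inside the fold threshold on both sides. *Gpx4* (A_51_P462448) gave 11.64, 11.58 and 11.45 in B41HET and 11.83, 11.78 and 11.80 in B41KO. It was the only gene of the 10 with every B41KO sample above every B41HET sample. The difference was 0.25 ± 0.08 (SE) on the log2 scale, 1.19-fold, and was not called (limma adjusted p = 0.131). With normexp background correction its adjusted p was 0.0439, the lowest of its 14 alternatives, which reached up to 0.380, and the log2 difference there was 0.27.

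*Txnrd1*, the cytosolic thioredoxin reductase that passes electrons from NADPH to thioredoxin, had 2 probes. The brighter one (A_51_P320614) gave 6.63, 6.76 and 6.63 in B41HET and 6.48, 6.07 and 6.16 in B41KO. The other (A_55_P2740574) gave 6.39, 6.24 and 6.43 in B41HET and 6.24, 6.16 and 6.21 in B41KO. On both probes the B41KO samples lay below the B41HET samples, by 0.15 at the nearest on the brighter probe and by 0.006 on the other. The log2 differences were -0.43 ± 0.13 (limma adjusted p = 0.109) and -0.15 ± 0.08 (limma adjusted p = 0.334), and neither was called. Over the alternatives they ran from -0.56 to -0.19 and from -0.20 to -0.05. *Srxn1*, which encodes sulfiredoxin, the enzyme that restores overoxidised peroxiredoxins, was near background (A_55_P2033120). It gave 4.02, 4.32 and 3.55 in B41HET, all well above background, and 3.94, 4.01 and 3.19 in B41KO, where 2 of 3 arrays were. The samples overlapped, and the log2 difference of -0.25 had a 95% interval from -0.98 to 0.47 (limma adjusted p = 0.674), which reaches past the fold threshold on the lower side, so a change of that size could not be told from none here.

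*Prdx1*, a peroxiredoxin that reduces hydrogen peroxide with electrons from thioredoxin, had 3 probes on the same transcript, and they disagreed. Probe 1, the brightest (A_55_P2904683), gave 9.89, 10.25 and 10.09 in B41HET and 10.49, 10.04 and 10.41 in B41KO. Probe 2 (A_51_P353183) gave 10.39, 10.30 and 10.36 in B41HET and 9.84, 9.94 and 9.98 in B41KO. Probe 3 (A_66_P113839) gave 7.50, 7.46 and 7.44 in B41HET and 7.54, 7.42 and 7.50 in B41KO. The genotypes were separate on probe 2 alone, by 0.31 at the nearest. The log2 difference there was -0.43 ± 0.07 (SE, n = 3 per genotype; limma adjusted p = 0.0327), which passed the p threshold and not the fold threshold. It was the only 1 of the 14 probes with an adjusted p under 0.05, and over its 14 alternatives the adjusted p ran from 0.00868 to 0.125. The other two probes differed by 0.23 ± 0.16 (limma adjusted p = 0.454) and 0.02 ± 0.07 (limma adjusted p = 0.916). A single direction for *Prdx1* could not be given.

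*Nqo1* encodes a quinone reductase that is widely read as an NRF2 target. None of the 6 arrays had its probe (A_51_P424338) well above background, with log2 signals of 1.11, 2.24 and 2.01 in B41HET and 1.34, 2.38 and 2.39 in B41KO. No fold is given for it, and an effect of genotype on *Nqo1* was not detectable on these arrays. *Sod2*, the mitochondrial superoxide dismutase, was at a similar limit on its probe (A_55_P2908509). It gave 3.06, 1.99 and 1.12 in B41HET, none of them well above background, and 2.64, 3.48 and 3.24 in B41KO, where 1 of 3 arrays was. The samples overlapped, and the test did not call the probe (limma adjusted p = 0.297). No fold is given for *Sod2*.

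**Figure D2:**
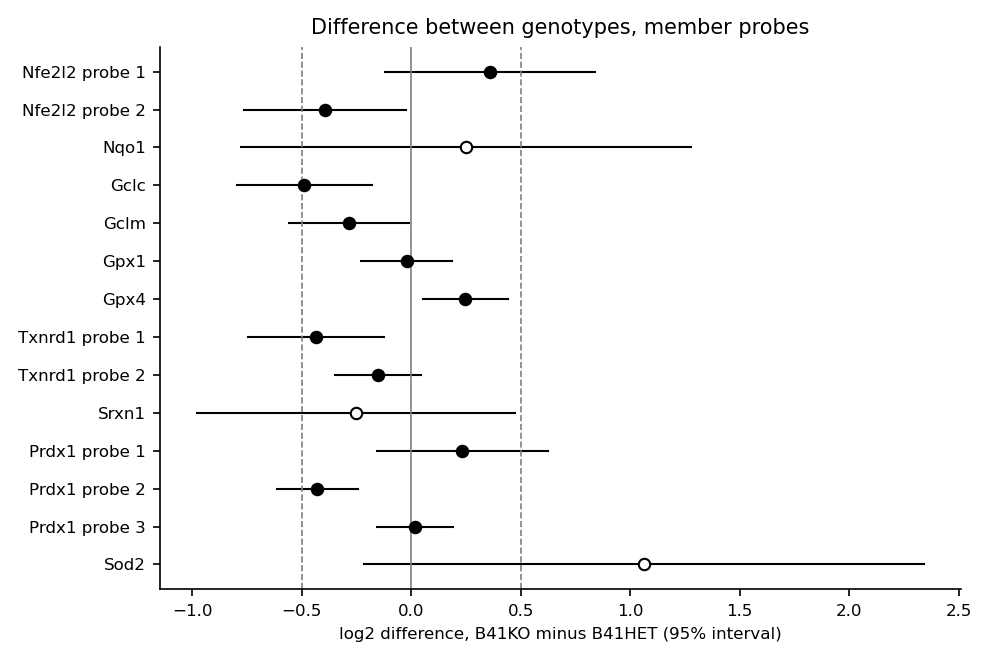
Log2 difference between genotypes (horizontal axis, B41KO minus B41HET) for the 14 probes with 95% intervals from limma, dashed lines at the fold threshold of 0.5 in either direction. Open points are probes with fewer than 6 arrays well above background, and those of Nqo1 and Sod2 are not read as folds. Only the intervals of Gpx1, Gpx4, Txnrd1 probe 2 and Prdx1 probe 3 lie wholly between the dashed lines.

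Around these 10 genes, 69 other genes of the pathway were taken, each by its brightest probe, in a list drawn up with earlier results of these arrays known. In B41KO 11 fell and 1 rose, so that 15.9% were called lower, against 4.05% of all genes by the same rule, and 1.45% higher, against 1.44% of all genes. Among the 60 genes well above background on all 6 arrays, 10 (16.7%) fell and none rose, where of all such genes 4.94% fell and 1.59% rose. The median log2 difference was -0.07 over the 69 genes and 0.01 over all genes. The genes that fell were *Sqstm1*, *Glrx*, *Gpx3*, *Mgst1*, *Gstz1*, *Txnip*, *Prdx5*, *Cat*, *Cbr1*, *Ftl1* and *G6pdx*, spread over all 8 roles. The count of 11 was 3, 2 and 8 without B41HET replicate 1, 2 or 3, and 6, 5 and 6 without B41KO replicate 1, 2 or 3. By gene, over 14 alternatives each, *Gpx3* and *Mgst1* were called in 13, *Sqstm1* and *Txnip* in 10, *Cbr1* in 9, *G6pdx*, *Glrx*, *Gstz1* and *Prdx5* in 7, *Ftl1* in 6 and *Cat* in 4. With the row of the slide as a block the count was 2, *Gpx3* and *Mgst1*, and in that model B41KO replicate 1 alone, which shared row 1 with the 3 B41HET arrays, is set against them.

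**Figure D3:**
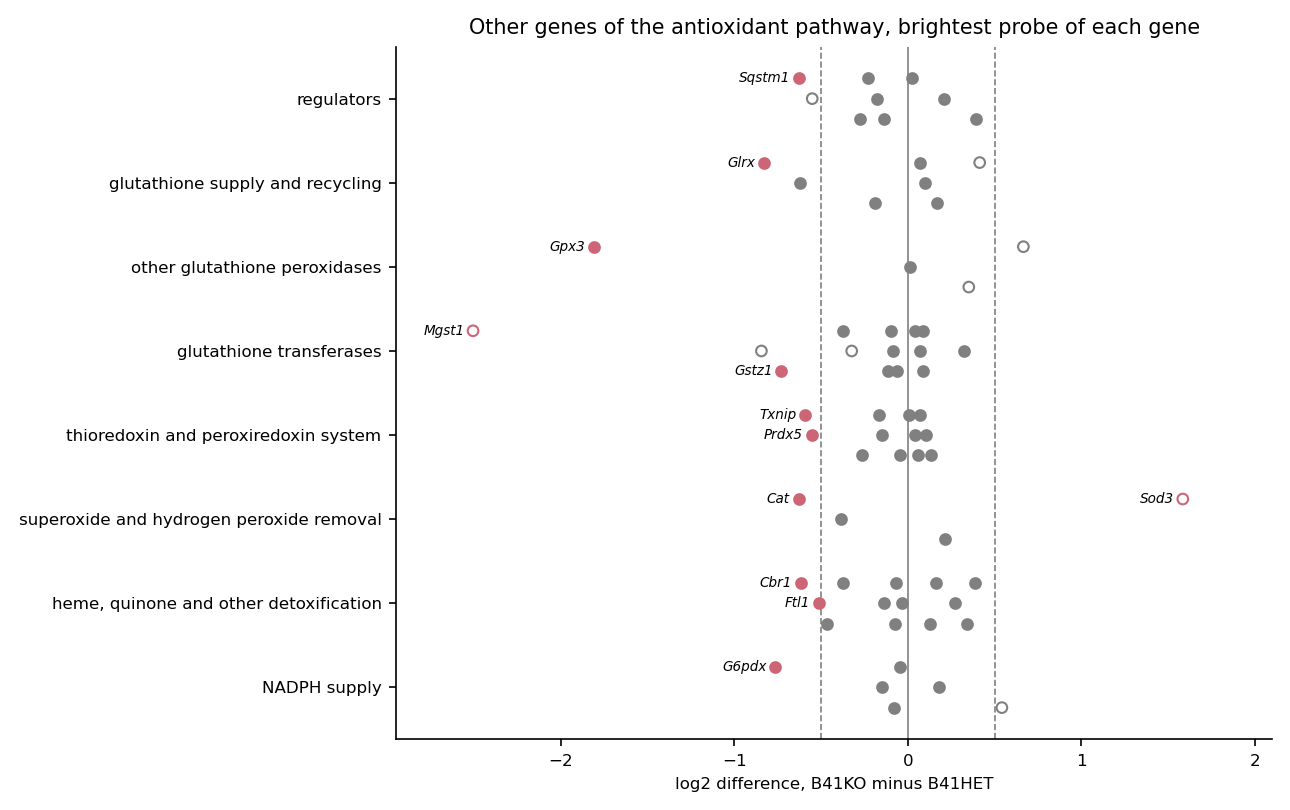
Log2 difference between genotypes (horizontal axis, B41KO minus B41HET) of 69 other pathway genes, 1 row of points per role, with called genes named and in red and open points for genes with fewer than 6 arrays well above background. The called genes lie left of the lower dashed line except Sod3, whose probe was near background throughout.

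Of 9 regulators, 1 fell. *Sqstm1*, whose product p62 binds KEAP1 and takes it to autophagy, gave 12.62, 12.55 and 12.56 in B41HET and 12.01, 11.95 and 11.88 in B41KO. Its log2 difference was -0.63 ± 0.07 (SE; limma adjusted p = 0.0112), while its second probe gave -0.42 and was not called. *Keap1* differed by -0.14 (limma adjusted p = 0.50) and *Mafg*, which encodes a small MAF partner of NRF2, by -0.23 (0.450), both with overlapping samples. *Bach1*, the repressor that competes with NRF2, gave 8.05, 7.81 and 7.80 in B41HET and 8.31, 8.35 and 8.17 in B41KO. The B41KO samples of *Bach1* lay above the B41HET samples, and the log2 difference of 0.39 ± 0.10 was not called (limma adjusted p = 0.0906).

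Of 7 genes of glutathione supply and recycling, 1 fell. *Glrx*, the glutaredoxin that removes glutathione from proteins, gave 8.84, 8.93 and 8.55 in B41HET and 8.09, 7.82 and 7.91 in B41KO, a log2 difference of -0.83 ± 0.13 (SE; limma adjusted p = 0.0254). *Gsr*, glutathione reductase, differed by -0.19 and was not called (limma adjusted p = 0.183), although its samples did not overlap. *Slc7a11*, the cystine transporter subunit and a known NRF2 target, was not well above background on either of its 2 probes in any sample, and no fold is given.

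Of the other 4 glutathione peroxidases, *Gpx3* fell. *Gpx3*, which encodes the secreted plasma form, gave 6.91, 6.86 and 6.86 in B41HET and 5.06, 5.20 and 4.93 in B41KO. This was a difference of -1.81 ± 0.09 on the log2 scale, 3.50-fold (limma adjusted p = 0.00155), and of -0.96 with normexp background correction. *Gpx7* and *Gpx8* were not well above background in B41HET. Beside this, *Gpx1* and *Gpx4*, the members of the same enzyme family described above, differed by -0.02 and 0.25.

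Of 14 glutathione transferases, 2 fell. *Mgst1*, a membrane-bound transferase, gave 4.85, 5.18 and 4.66 in B41HET, and none of the B41KO arrays had it well above background. It was at least 3.97-fold lower in B41KO (limma adjusted p = 0.0045), and at least 2.11-fold lower on its second probe, while normexp background correction gave a log2 difference of -0.51 on the first. *Gstz1*, which acts in tyrosine breakdown, fell by 0.73 ± 0.14 on the log2 scale (SE; limma adjusted p = 0.0390), and its second probe gave -0.31 and was not called.

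Of 12 genes of the thioredoxin and peroxiredoxin system, 2 fell. *Txnip*, whose product inhibits thioredoxin, gave 14.54, 14.50 and 14.51 in B41HET and 13.93, 13.98 and 13.86 in B41KO. Its log2 difference was -0.59 ± 0.07 (SE; limma adjusted p = 0.0117), while its second probe gave -0.11 and was not called. *Prdx5*, a peroxiredoxin of mitochondria, peroxisomes and cytosol, gave 12.10, 12.17 and 12.05 in B41HET and 11.53, 11.59 and 11.54 in B41KO, a difference of -0.56 ± 0.07 (limma adjusted p = 0.0148). *Txn1*, cytosolic thioredoxin, differed by -0.15 with overlapping samples (limma adjusted p = 0.575).

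Of 4 genes that remove superoxide and hydrogen peroxide, 1 fell and 1 rose. *Cat*, catalase, gave 7.73, 7.38 and 7.66 in B41HET and 6.97, 7.10 and 6.81 in B41KO, a log2 difference of -0.63 ± 0.13 whose limma adjusted p of 0.0482 was near the threshold. *Sod1*, the cytosolic superoxide dismutase, was lower on all 3 B41KO arrays by -0.38 ± 0.09 and was not called (limma adjusted p = 0.0619). *Sod3*, the extracellular dismutase, was the gene called higher (limma adjusted p = 0.0143), but no array had it well above background and no fold is given.

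Of 13 genes of heme, quinone and other detoxification, 2 fell. *Cbr1*, a carbonyl reductase, gave 9.98, 9.88 and 9.90 in B41HET and 9.32, 9.24 and 9.35 in B41KO, a log2 difference of -0.62 ± 0.07 (SE; limma adjusted p = 0.0118). *Ftl1*, the ferritin light chain that stores iron, fell by 0.51 ± 0.08 (limma adjusted p = 0.0251), and its second probe, at -0.08, was not called. *Hmox1*, which breaks down heme and is a target of both NRF2 and BACH1, gave 6.16, 6.41 and 6.27 in B41HET and 6.06, 5.78 and 5.88 in B41KO. Its samples did not overlap, and the log2 difference of -0.37 ± 0.11 was not called (limma adjusted p = 0.118). Of 6 genes of NADPH supply, *G6pdx*, the glucose-6-phosphate dehydrogenase that opens the pentose phosphate pathway, fell. It gave 11.09, 11.06 and 10.78 in B41HET and 10.24, 10.27 and 10.12 in B41KO, a difference of -0.77 ± 0.11 on the log2 scale (limma adjusted p = 0.0201).

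All 12 microglia markers, *P2ry12* and *Tmem119* among them, were measured well above background in every sample, and 1 of them, *Fcrls*, was called lower. Their summed linear signal was 173983 to 192292 in B41HET and 170838 to 181446 in B41KO. Markers of other cells moved with the genotype. Of 12 neutrophil and monocyte markers 8 fell, *S100a8* and *Ngp* among them, and every sample had all 12 well above background. Their summed signal was 30822 to 34652 in B41HET and 6218 to 6636 in B41KO. *Mmp8*, *Ccr2*, *Elane* and *Mpo*, at -0.61, -0.30, -0.04 and 0.38 on the log2 scale, were not called, and *Mpo* was higher in every B41KO sample. Of 8 border macrophage markers 5 fell (summed signal 2378 to 2572 and 1600 to 1794), with *Mrc1* and *Lyve1* not well above background in B41KO. Of 8 endothelial markers, 2 fell, *Pecam1* and *Ly6c1* (1218 to 1325 and 469 to 516), while *Cldn5*, *Slco1a4* and *Kdr*, at -0.13, 0.04 and -0.01 on the log2 scale, were not called, and *Flt1*, *Cdh5* and *Tek* stayed near background in all samples. Of 8 erythroid markers measured 3 rose, *Hba-a2*, *Hbb-bt* and *Alas2*. Most of the erythroid sum (33510 to 36082 and 44037 to 46325) came from *Hba-a1*, which differed by 0.29 and was not called. Of the oligodendrocyte and B cell markers 1 fell in each list, of 7 and 5, and none of 7 astrocyte or 6 neuron markers was called. The summed astrocyte signal was higher in every B41KO sample (1898 to 1978 and 2084 to 2315). Most of it came from *Slc1a3* and *Aqp4*, which differed by 0.18 and 0.23 with overlapping samples. Of the 7 astrocyte differences 4 were positive and 3 negative, and *Gja1*, at -0.25, was lower in every B41KO sample. These lists moved in the same comparison as *Gpx3*, *Mgst1*, *Glrx* and the other genes that fell, and their part in those differences, and in those of *Gclc* and *Txnrd1*, was not tested. The gate for CD45lo Cx3cr1+ CD11b+ cells is meant to select microglia. The paper gives the purity of the sort only as a lower limit, and the share of other cells in each sample was not tested. Fewer cells of a type and less RNA per cell cannot be told apart in such bulk samples.

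**Figure D4:**
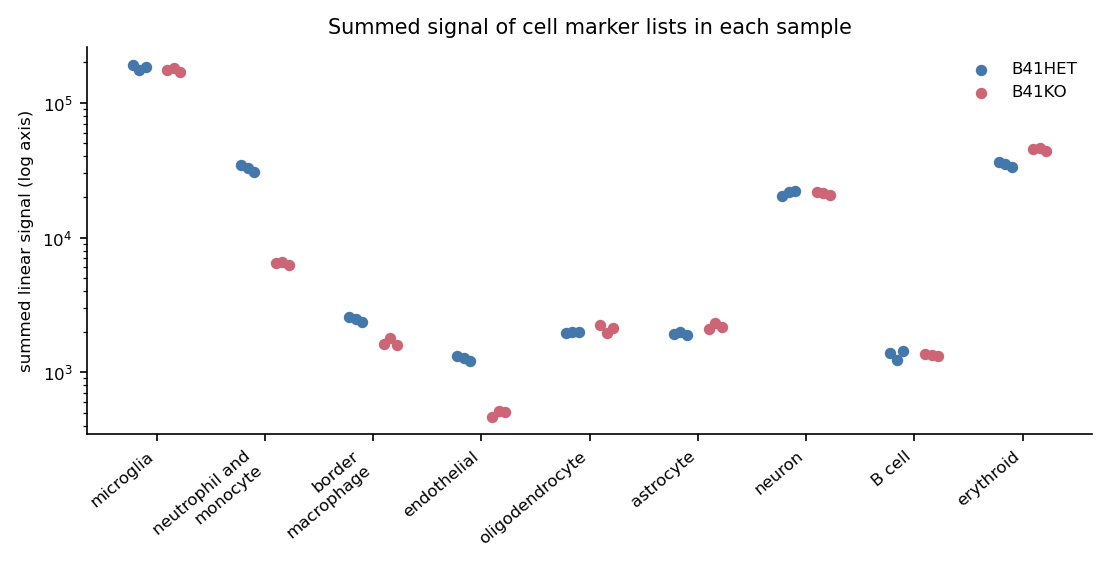
Summed linear signal (vertical axis, log scale) of 9 lists of cell markers in each of the 6 samples. The microglia sums overlap between genotypes, the neutrophil and monocyte, border macrophage and endothelial sums are lower in all 3 B41KO samples, and the erythroid and astrocyte sums are higher.

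*Bhlhe41* itself gave 7.95, 7.87 and 7.65 in B41HET and 8.56, 7.84 and 8.21 in B41KO on its brighter probe, a log2 difference of 0.38 ± 0.20 (SE; limma adjusted p = 0.330). Its second probe gave 0.33 (limma adjusted p = 0.204), and *Bhlhe40*, its paralogue, differed by 0.08 (0.708). The transcript was thus not lower in B41KO. Whether the probes lie in sequence that the allele still transcribes was not tested, so these values do not check the genotype labels. All 6 arrays lay on 1 slide and in 1 scan. Of 56605 probes 70.1% to 75.5% were well above background per array, no spot was saturated, and samples correlated at 0.989 to 0.993 within a genotype and at 0.985 to 0.989 between genotypes (Pearson's r over probes, which are no independent replicates).

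**Figure D5:**
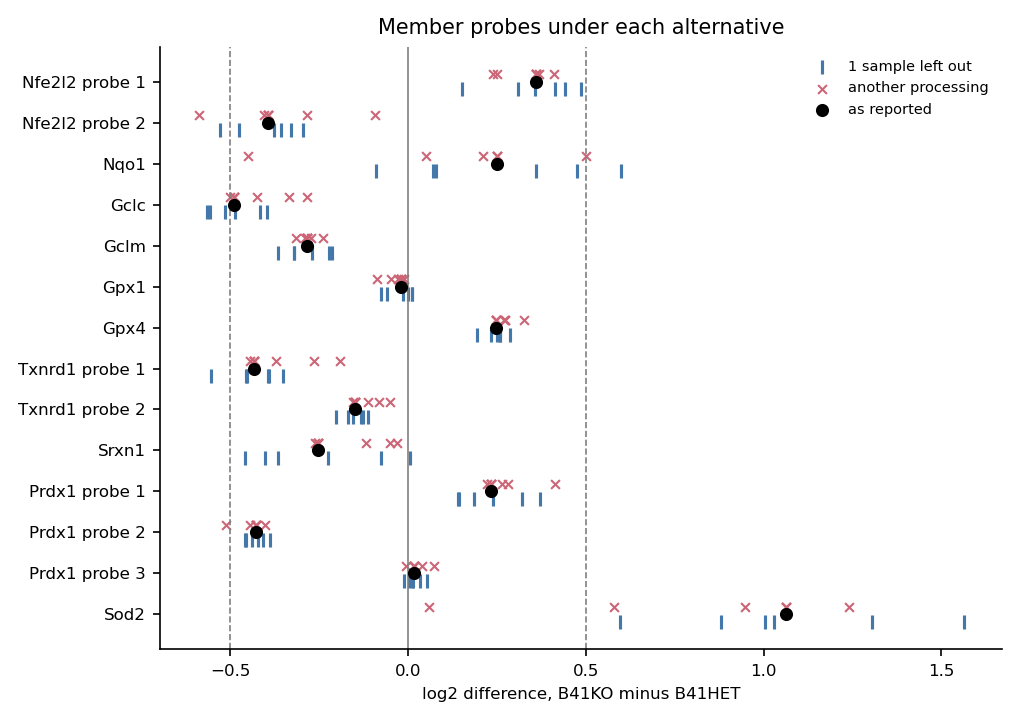
Log2 difference of the 14 probes (horizontal axis, B41KO minus B41HET) as reported, under each other processing (crosses) and with each sample left out (ticks), with dashed lines at the fold threshold of 0.5. Both subunits of glutamate-cysteine ligase and both Txnrd1 probes stay left of zero and Gpx4 right of it in all of these alternatives, while Nqo1, Gpx1, Srxn1 and Prdx1 probe 3 cross zero.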

How the data were processed

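Expression was measured on 6 one-colour Agilent arrays, 3 per genotype. The authors deposited the scanner output of Feature Extraction 11.5.1.1, with background-subtracted intensities per spot, and their own processed log2 values, of unstated scale, used as an alternative. Depth does not apply to arrays, and their number limits the precision. Here processed intensities were taken to log2 and quantile normalized without control spots (59305 of 62976 spots kept per array). Outlier spots by the scanner's flag, 95 to 136 of them, were set aside on that array, spots of a probe averaged, and probes with values in at least 2 samples per genotype tested with limma 3.58.1 in R 4.3.3, with data.table version 1.17.8, with genotype as the only term. The Methods name quantile normalization, limma in another version and the thresholds. Probes were named by transcript accession through RefSeq genes of GRCm38.p6 (33767 of 56605 probes, 59.7%), and array coordinates, on another build, are not given. The script was tested on simulated data. Figures used matplotlib 3.10.9 in Python 3.11.15.

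The genes, the 69 pathway genes and 9 marker lists were chosen with earlier results of these data known. Named were every probe of the 10 genes, pathway genes that were called, Keap1, Bach1, Mafg, Slc7a11, Gsr, Txn1, Hmox1, Cat, Sod1 and G6pdx whatever their values, Bhlhe41, Bhlhe40 and the 3 probes most like Nfe2l2. Marker genes, second probes, and Gpx7 and Gpx8 were named after their values were seen, and the AP-1 motif was added after the matches were seen. Alternatives were a shift to the 75th percentile, the values processed by the authors, normexp on median signals with an offset of 50, a filter on dim probes (at least 3 arrays well above background), outlier spots kept, trend and robust variance, a block for replicate number or for slide row, samples left out in turn, no fold threshold, and the mean over a gene's probes.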

Additional observations from a re-analysis of the deposited data

How the results depend on the processing

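No probe of the 10 genes was called in any alternative except without a fold threshold, where 1 was, *Prdx1* probe 2; with each sample left out the count was 0 to 0. Of the other pathway genes, none was called higher with normexp, with dim probes left out or with the replicate block, and 0 to 1 with a sample left out. The genes called lower were 0 with the replicate block, 2 with the slide row as a block and 2 to 8 with a sample left out, where fewer samples also leave less to test with. Over the array 1501 probes were called with normexp, 42 with the replicate block, 448 with the slide row and 796 to 1524 with a sample left out, against 2883. The calls were 971 higher and 1912 lower, and 1305 higher and 1523 lower with the shift to the 75th percentile.

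The sign turned for *Nqo1* with the slide row (-0.45) and with samples left out (-0.089 to 0.60), for *Prdx1* probe 3 with normexp (-0.0066) and with samples left out (-0.010 to 0.053), and with samples left out for *Gpx1* (-0.076 to 0.012), *Srxn1* (-0.46 to 0.0060) and *Slc7a11* (-0.068 to 0.67). *Nqo1* and *Slc7a11* were not well above background on any array, so neither sign gives a direction for them and no values are given. Of 472 values of named probes under alternatives, 395 kept direction and call, 67 lost the call and 1, *Slc7a11* with the slide row, gained it. The cause was not tested.

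The replicate numbers were not shown to pair the samples: the deviations of same-numbered samples from their group means correlated at 0.0276, 0.0136 and 0.0477. With the replicate block 0 probes of the 10 genes and 0 other pathway genes were called. Signal over background limits *Nqo1*, *Sod2*, *Srxn1*, *Slc7a11* and *Sod3*.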
